A study of Rattus norvegicus with 15 samples.

Results

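The microRNA (miRNA) miR-378 and the product of the opposite arm of its hairpin, miR-378*, were followed in rat hearts. Both were selected by name: every array feature whose miRNA name was rno-miR-378 or rno-miR-378* was taken, which gave 2 of the 350 miRNAs on the array. Whole hearts of male Sprague-Dawley rats were profiled on 15 single-colour arrays, with 5 in each of 3 groups, and no genetic modification is named for any group. The Veh group received vehicle. The DM group was made diabetic with an intravenous dose of streptozotocin, a toxin of the insulin-producing beta cells, at 60 mg/kg, and plasma glucose exceeded 300 mg/dL. The GF group received the same streptozotocin and then had a fast of 24 h and an intraperitoneal dose of insulin, 0.5 IU/kg, so that plasma glucose fluctuated. The fast and the insulin were given to this group alone, so they and the swings of glucose cannot be told apart in a comparison with GF. The labels give no age and do not tie arrays to animals, so p-values measure the spread between these samples, which may be technical.

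miR-378 is encoded in an intron of Ppargc1b, the gene of a transcriptional coactivator that drives mitochondrial biogenesis and fatty acid oxidation. Both arms of the hairpin are known to counter the metabolic programme of their host gene: miR-378 targets Crat, a mitochondrial carnitine acetyltransferase, and miR-378* targets Med13, a subunit of the Mediator complex. miR-378 is abundant in the heart muscle cell and has been described there as a brake on hypertrophic growth signals. A mature miRNA recognises its targets mainly through its seed, bases 2 to 8 from the 5′ end.

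The mature sequences are shown because the seeds define what each arm can pair with. They are from RefSeq on the GRCr8 assembly, 5′ to 3′, with the seed in capitals. The array carries the older names, and the files hold no probe sequence, so pairing miR-378 with miR-378a-3p and miR-378* with miR-378a-5p rests on the renaming of these miRNAs in miRBase.
miR-378 (miR-378a-3p): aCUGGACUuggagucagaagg
miR-378* (miR-378a-5p): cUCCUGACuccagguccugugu
The major arm is 21 bases long and lies at chr18:57128925-57128945 on the minus strand. The opposite arm is 22 bases long and lies at chr18:57128962-57128983 on the same strand. The hairpin gene Mir378, 65 bases, lay inside Ppargc1b on the same strand, 2480 bases from the start of a host gene of 102203 bases. Among the 693 rat mature names of the same RefSeq table, 0 others shared the seed of either arm, so no relative by seed could be followed on the array. RefSeq also lists a gene named Mir378b, and whether a product of it adds to the probe signals was not tested.

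Each arm was read by 2 probes of 10 spots each, 20 spots per array and 300 over all arrays. The scanner software flagged 10 spots of miR-378 and 14 of miR-378*, which were left out, and 0 of the remaining spots failed to lie well above background. Both arms were detected on 15 of 15 arrays. The stated error of the summed signal was 7.60% to 7.75% for miR-378 and 7.19% to 7.30% for miR-378*. Levels below are log2 of the signal after division by the 75th percentile of the array, rescaled to a common level, from the brighter probe of each arm, and are not compared between miRNAs, since probes differ in brightness.

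Before the results, 5 pairs of arrays have to be named: the members of a pair came from 1 group, lay on different slides and were closer than the stated error (reduced chi-square of 0.243 to 0.630, against 1.07 to 7.70 in the other pairs) so each pair was averaged and counted as 1 sample. This left 10 distinct samples: 4 Veh, 3 DM and 3 GF. Within those 5 pairs the arrays differed by 0.013 to 0.16 in miR-378 and by 0.066 to 0.17 in miR-378*, on the log2 scale. The groups were not fully separate by this measure. The array of Veh replicate 5 lay nearer to DM replicates 1, 2 and 4 (1.15 to 1.91) than to any other Veh array (3.25 to 4.09). Values without Veh replicate 5 are therefore given where they bear on a result. DM replicates 3 and 5 lay nearer to GF replicates 1, 2 and 4 (2.53 to 3.43) than to the other DM arrays (4.87 to 5.59). The arrays lay on 2 slides, each with all 3 groups.

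The level of miR-378 was highest in DM, intermediate in Veh and lowest in GF, and neither difference from Veh passed the threshold. In Veh hearts it was 10.29 in replicates 1 and 3, 10.05 in replicate 2, 10.11 in replicate 4 and 10.18 in replicate 5. In DM hearts it was 10.33 in replicate 1, 10.37 in replicates 2 and 4 and 10.28 in replicates 3 and 5. In GF hearts it was 10.02 in replicates 1 and 5, 10.05 in replicates 2 and 4 and 9.80 in replicate 6. All GF samples lay below all Veh and DM samples, but the highest GF sample (10.047) was only just under the lowest Veh sample (10.053). Single arrays overlapped, with those of GF replicates 1 (10.103) and 4 (10.075) above that of Veh replicate 2. DM overlapped Veh only through Veh replicates 1 and 3. GF replicate 6 was the lowest sample and rests on 1 array, while the other GF samples are means of 2 arrays each. The fit weighted all samples equally. The means were 10.16 ± 0.10 (SD, n = 4) for Veh, 10.33 ± 0.043 (SD, n = 3) for DM and 9.95 ± 0.14 (SD, n = 3) for GF. On the linear scale the scaled signal ran from 1063 to 1250 in Veh, from 1243 to 1320 in DM and from 889 to 1058 in GF.

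miR-378* had a narrower range over the 10 samples. In Veh hearts it was 8.66 in replicates 1 and 3, 8.55 in replicate 2, 8.66 in replicate 4 and 8.57 in replicate 5. In DM hearts it was 8.58 in replicate 1, 8.61 in replicates 2 and 4 and 8.80 in replicates 3 and 5. In GF hearts it was 8.54 in replicates 1 and 5, 8.53 in replicates 2 and 4 and 8.51 in replicate 6. The GF samples were again the lowest, with the highest of them just under the lowest Veh sample, and DM overlapped Veh. The means were 8.61 ± 0.056 (SD, n = 4) for Veh, 8.66 ± 0.12 (SD, n = 3) for DM and 8.53 ± 0.014 (SD, n = 3) for GF.

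**Figure D1:**
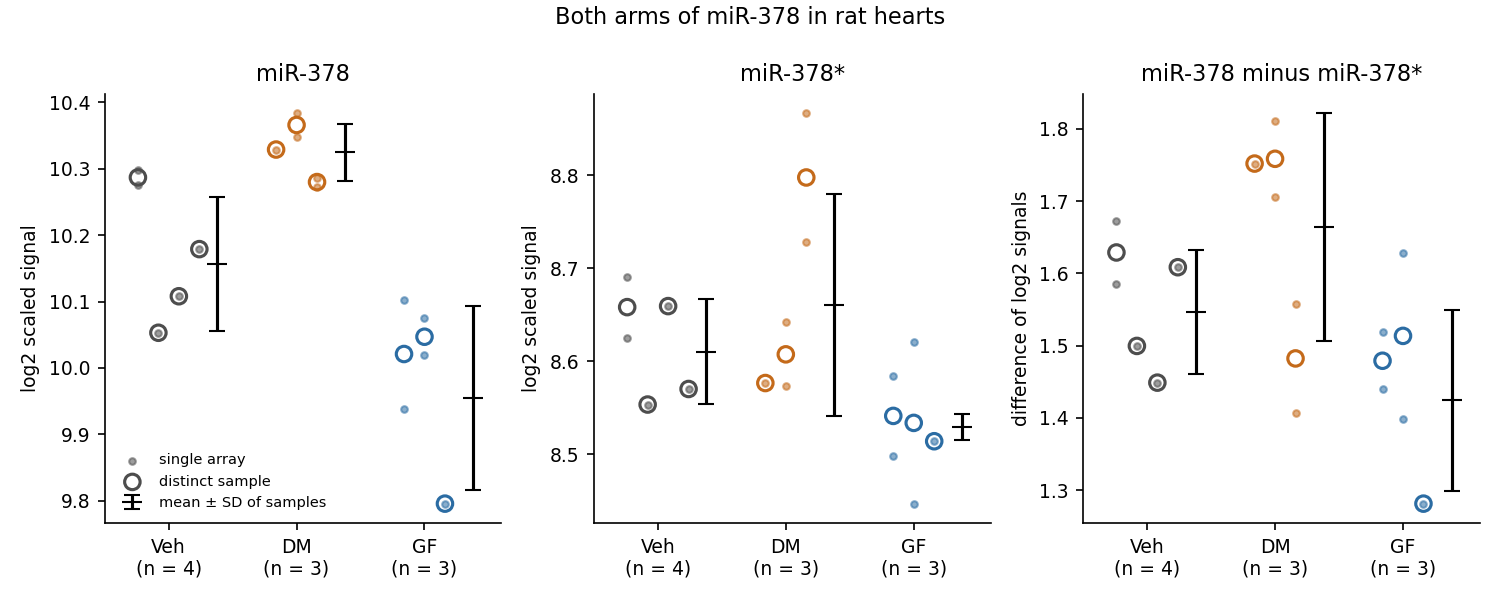
Scaled log2 signal of miR-378 (left) and miR-378* (middle) and the difference between both arms (right) in Veh, DM and GF hearts; open circles are distinct samples, small points single arrays, and bars the mean ± SD over 4, 3 and 3 samples. For miR-378 every GF sample, from 9.80 to 10.05, lies below every DM sample, from 10.28 to 10.37.

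The comparison of DM with Veh asks how hearts of diabetic rats with lasting hyperglycaemia differed from controls. Streptozotocin and hyperglycaemia went together, so their effects cannot be told apart in either comparison with Veh. miR-378 was 0.17 higher in DM on the log2 scale (SE 0.087, 95% interval -0.027 to 0.36), a 1.12-fold difference, with an adjusted p of 0.546 (limma). The interval includes no difference, and 0 of 165 tested miRNAs passed in that comparison (a share of 0%; 14 had an unadjusted p under 0.05). Without Veh replicate 5 the difference was 0.18 (adjusted p = 0.263). miR-378* differed by 0.050 (SE 0.074, 95% interval -0.12 to 0.22, adjusted p = 0.795), which is smaller than the SD of the DM samples. Of the 165 tested miRNAs, 29 had a larger value than miR-378 in this comparison and 73 a larger value than miR-378*. The median of all tested miRNAs was 0.027.

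The comparison of GF with Veh asks how hearts of diabetic rats with fluctuating glucose differed from controls. miR-378 was lower in GF by 0.20 (SE 0.087, 95% interval -0.40 to -0.0069), which is 13.1% less signal, with an unadjusted p of 0.0438 and an adjusted p of 0.157 (limma). miR-378 was taken up because of its contrast of GF with DM over these arrays. Its interval and p against Veh are therefore not independent of that choice. miR-378 did not pass the threshold, which 13 of 165 miRNAs passed in either direction (7.88%), 8 of them lower (4.85%). That count fell to 0 without Veh replicates 1 and 3, Veh replicate 2, Veh replicate 4, or GF replicates 2 and 4; it was 8 without GF replicate 6, 24 without DM replicates 3 and 5 and 28 without Veh replicate 5. Over distinct samples the GF and Veh values of miR-378 did not overlap, by the narrow margin given above. Such a separation in the lower direction held for 19.4% of tested miRNAs. The difference was -0.12 without GF replicate 6 and -0.19 without Veh replicate 5. miR-378* differed by -0.081 (SE 0.074, 95% interval -0.25 to 0.086, adjusted p = 0.495), and its GF samples also lay below all Veh samples. Of the 165 tested miRNAs, 48 were lower than miR-378 and 73 lower than miR-378*, with a median over all of -0.055.

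In the fit of all 15 arrays, which counts the close pairs as independent, miR-378 was lower in GF than in Veh by 0.20 (adjusted p = 0.0322, limma), where 36.4% of tested miRNAs passed and 23.6% passed in the lower direction. With the close pairs as a random block the adjusted p was 0.153. In the same 15 arrays DM minus Veh was 0.14 for miR-378 (adjusted p = 0.219), where 1.82% passed. Among the settings run, miR-378 passed in GF minus Veh only over 15 arrays with no block or with slide as a block, where repeated arrays count separately. These values too are not independent of the choice of miR-378 on the contrast of GF with DM. Within slide 1 the difference of GF from Veh was -0.10 and within slide 2 it was -0.26.

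GF and DM are both diabetic, and they differ by the fast and the insulin. miR-378 was taken up because of this contrast over 15 arrays, so its values here are a description with no test. Over distinct samples GF minus DM was -0.37 (SE 0.093), a fold of 0.774. miR-378* had -0.13 (SE 0.079). In both arms every GF sample lay below every DM sample, as in 12.7% of tested miRNAs. Over distinct samples 0 miRNAs passed (limma, 0%; 18 had an unadjusted p under 0.05), and over 15 arrays 3.64% did. Of the 165 miRNAs, 15 had a lower value than miR-378 and 62 a lower value than miR-378*, with a median of -0.084. The tests against Veh above use the same DM and GF samples, so they are not independent of that choice.

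**Figure D2:**
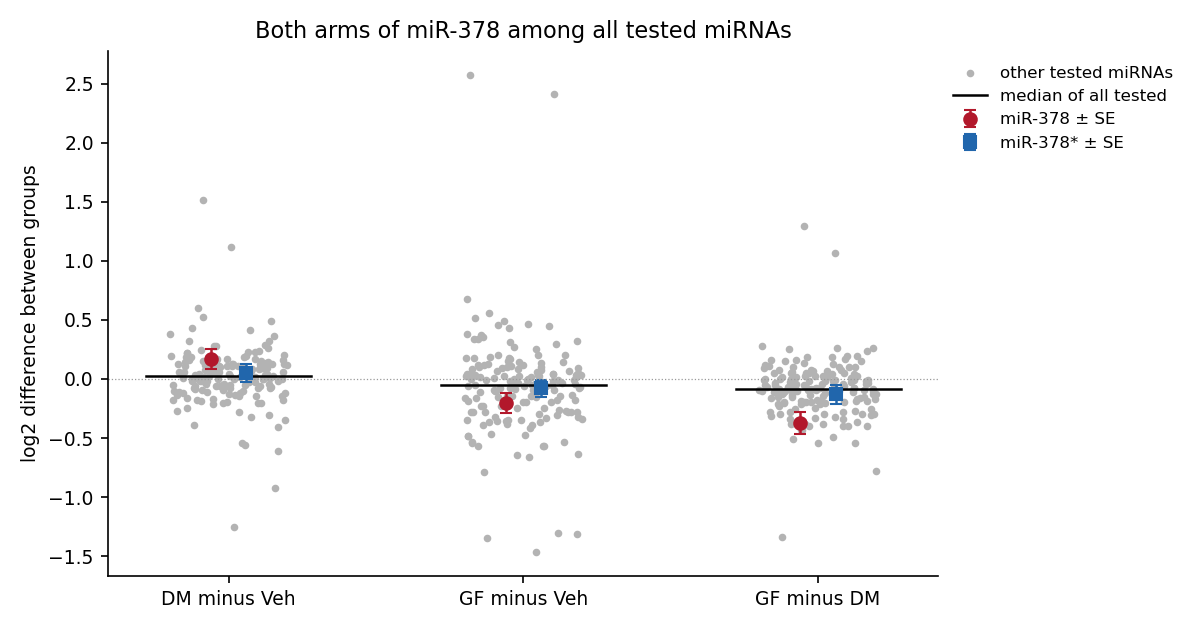
Log2 difference of each of the 165 tested miRNAs in the 3 comparisons, with miR-378 (circle) and miR-378* (square) ± SE and the median of all tested miRNAs as a line. miR-378 lies above the median in DM minus Veh (0.17) and below it in GF minus Veh (-0.20) and GF minus DM (-0.37), while miR-378* lies near it.

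Both arms come from 1 precursor, and the difference between them within a sample does not depend on a linear scaling of the array. The log2 signal of miR-378 less that of miR-378* was 1.55 ± 0.086 (SD, n = 4) for Veh, 1.66 ± 0.16 (SD, n = 3) for DM and 1.42 ± 0.13 (SD, n = 3) for GF. It is used only as a change between groups, since the probes of the arms differ. In DM it was 1.75 in replicate 1, 1.76 in replicates 2 and 4 and 1.48 in replicates 3 and 5, the last of which lay among the Veh samples. In GF the lowest sample was replicate 6 at 1.28, and the other GF samples overlapped Veh. The change from Veh was 0.12 in DM and -0.12 in GF, and neither passed the threshold in an exact permutation test, which this design could not reach (two-sided p = 0.286 in both, and 0.286 adjusted over the 2 comparisons; 0.0571 is the smallest p the design allows). Leaving out 1 sample gave -0.17 to -0.050 for the change of GF from Veh, with -0.050 without GF replicate 6. GF minus DM was -0.24, as a description.

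The probes of each arm ran together. Over the 10 distinct samples the scaled log2 signals of the brighter and dimmer probe correlated with r = 0.978 for miR-378 and r = 0.970 for miR-378*, a description of 2 probes read on the same arrays. Spots of 1 probe on 1 array varied with a median CV of 4.04% and 5.16% for the brighter and dimmer probe of miR-378, and of 5.56% and 3.95% for those of miR-378*. The dimmer probe of miR-378 gave 0.11 in DM minus Veh, -0.28 in GF minus Veh and -0.40 in GF minus DM. The dimmer probe of miR-378* gave 0.066, -0.12 and -0.18 in the same order. Every sign was that of the brighter probe, and the dimmer probe of miR-378 in GF minus Veh had an adjusted p of 0.0646.

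**Figure D3:**
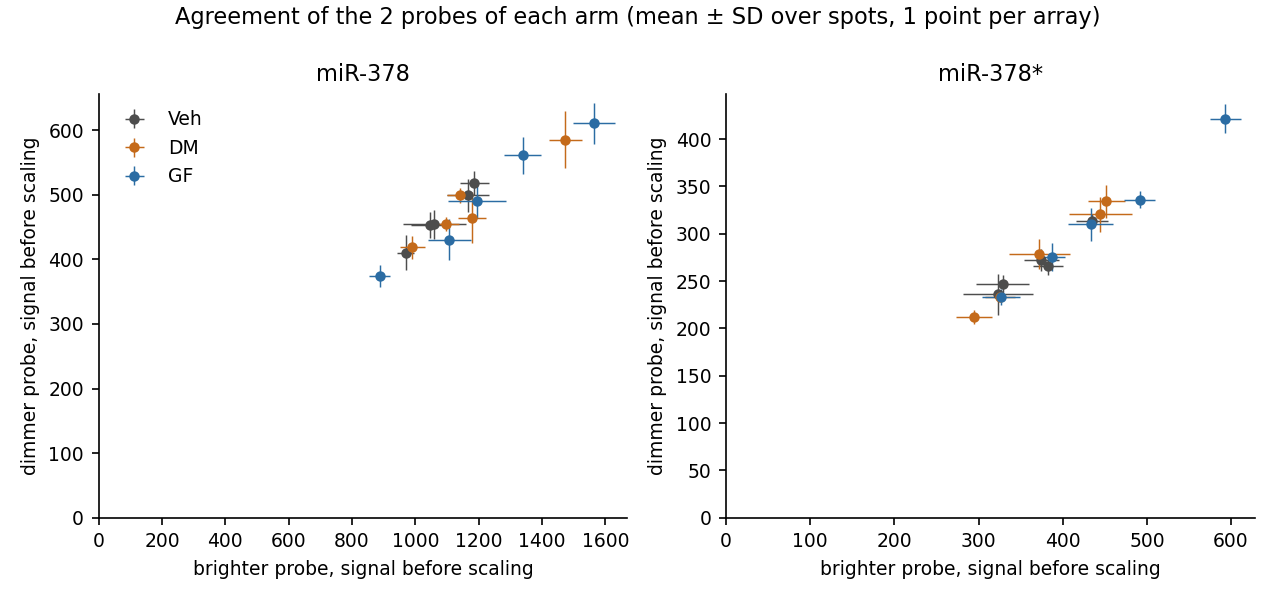
Signal before scaling of the brighter probe (horizontal) and the dimmer probe (vertical) of miR-378 (left) and miR-378* (right); each point is 1 of 15 arrays with the SD over its spots. The points of all groups lie along 1 line in each panel (r = 0.978 and 0.970 over the 10 distinct samples after scaling).

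The arrays differed in overall brightness, and the scaling decides the sign of both comparisons with GF. As a measure of brightness, the 75th percentile stood at 2205 ± 261 (SD, n = 4) for Veh, 2027 ± 256 (SD, n = 3) for DM and 2780 ± 529 (SD, n = 3) for GF. Of the 3 GF samples 2 lay above all Veh samples. The exact permutation p of GF against Veh was 0.229 (adjusted over the 2 comparisons, 0.343). That test cannot decide the question, since 0.0571 is the smallest p the design allows. Before scaling, miR-378 was 10.11 ± 0.11 (SD, n = 4) for Veh, 10.15 ± 0.19 (SD, n = 3) for DM and 10.23 ± 0.27 (SD, n = 3) for GF, and the groups overlapped. With no scaling GF minus Veh was 0.12 and GF minus DM 0.077, while the median of all tested miRNAs stood at 0.24 and 0.35. With the authors' deposited values, which are not scaled between arrays, the differences were 0.093 and 0.070. Under other scalings GF minus Veh stayed below 0 but was smaller, at -0.067 with the percentile over all probes, -0.081 with the hur control spots and -0.088 with quantile normalization. Set against the median of all tested miRNAs, miR-378 lay below it by 0.075 to 0.23 in GF minus Veh and by 0.16 to 0.37 in GF minus DM over all settings tried. DM minus Veh was above 0 in each of these settings, from 0.024 to 0.30, and passed in none.

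**Figure D4:**
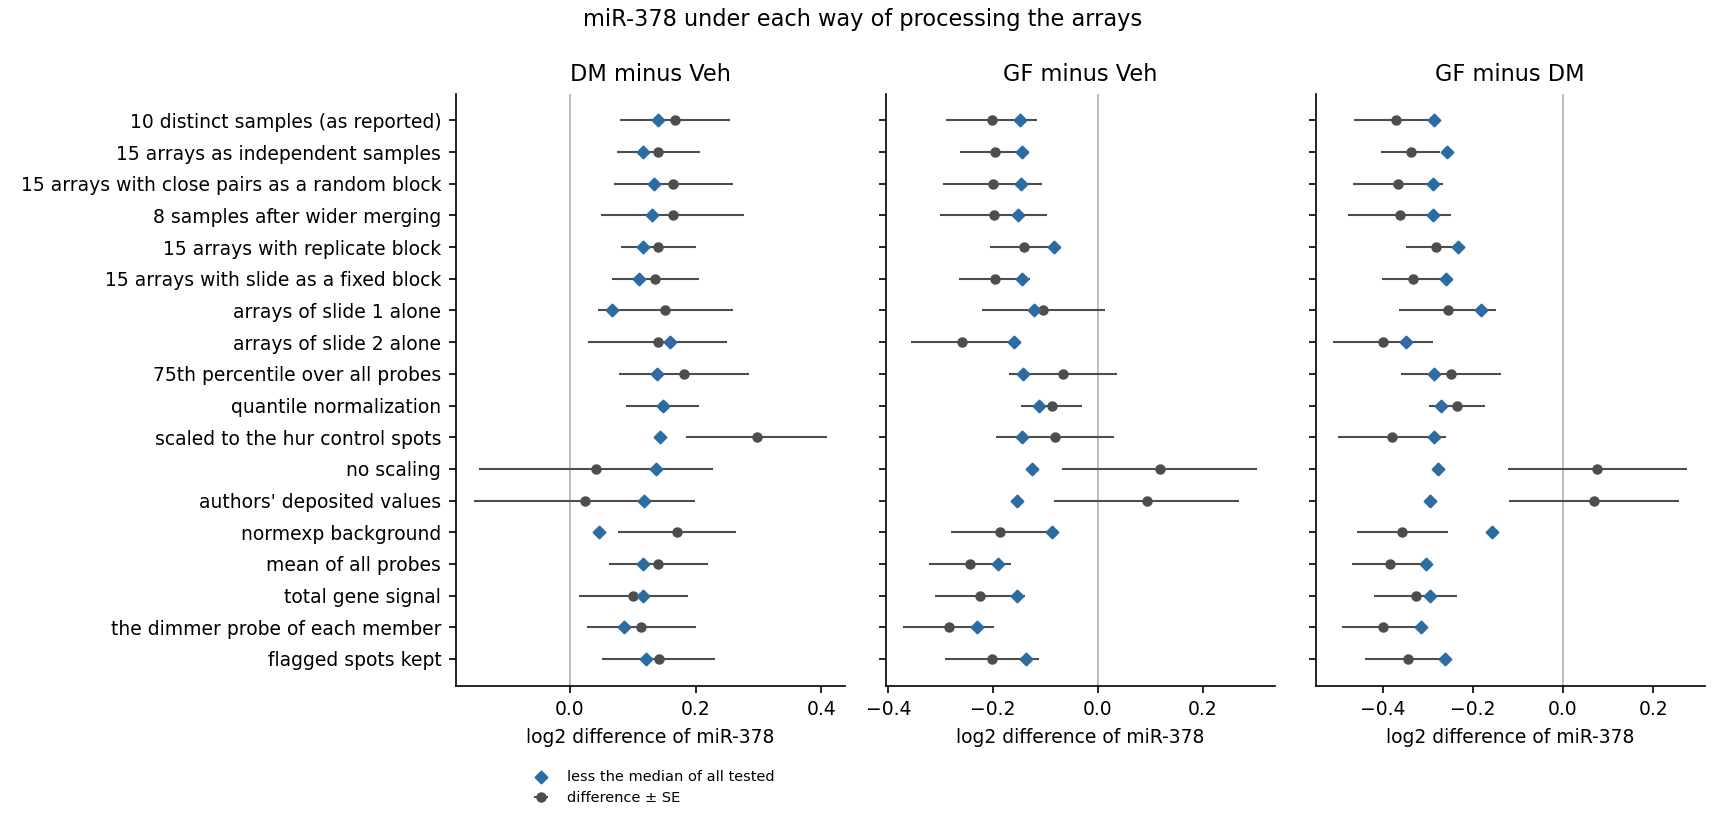
Log2 difference of miR-378 ± SE (circles) in the 3 comparisons under each way of processing the arrays, and the same value less the median of all tested miRNAs (diamonds). Without scaling, and for the authors' deposited values, the circles of both comparisons with GF lie above 0 (0.12 and 0.093 against Veh), while the diamonds lie below 0.

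The miRNAs with the most similar profile were ranked by Pearson's r with miR-378 over the 10 distinct samples, among 164 others. The points share arrays and scaling, and the median r was 0.25, with a range of -0.64 to 0.80. The highest were miR-139-5p (r = 0.80), miR-103 (0.76), miR-196c (0.74), miR-27a (0.73) and miR-194 (0.71). After the group means were removed, r was 0.83 for miR-139-5p, 0.70 for miR-103, 0.43 for miR-196c, 0.40 for miR-27a and 0.64 for miR-194. By that measure miR-340-5p (0.88) and miR-301a (0.85) stood above miR-139-5p. miR-139-5p is encoded in an intron of Pde2a and miR-103 in introns of pantothenate kinase genes, which make coenzyme A. The signal of miR-139-5p was 7.87 ± 0.12 (SD, n = 4) for Veh, 7.85 ± 0.15 (SD, n = 3) for DM and 7.60 ± 0.20 (SD, n = 3) for GF. Its difference of GF from Veh was -0.27 (adjusted p = 0.161, limma). miR-196c and miR-194 were at the floor of 4.31 in GF replicate 6, so their r rests in part on a bound.

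The lowest were miR-150 (r = -0.64), a lymphocyte miRNA, miR-25 (-0.48), miR-7a* (-0.44), miR-141 (-0.43), a member of the epithelial miR-200 family, and miR-19b (-0.42) of the miR-17 to miR-92 cluster. With group means removed, r was -0.41 for miR-150 and -0.0018 for miR-19b. miR-141 lay at the floor of 4.31 in 3 of 4 Veh samples, so its fold is not given. miR-19b was higher in GF than in Veh by 0.45 (adjusted p = 0.0385, limma), in the comparison whose calls depended on single samples. The other arm of the hairpin, miR-378*, stood 24th from the top with r = 0.57, and at 0.072 with group means removed.

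**Figure D5:**
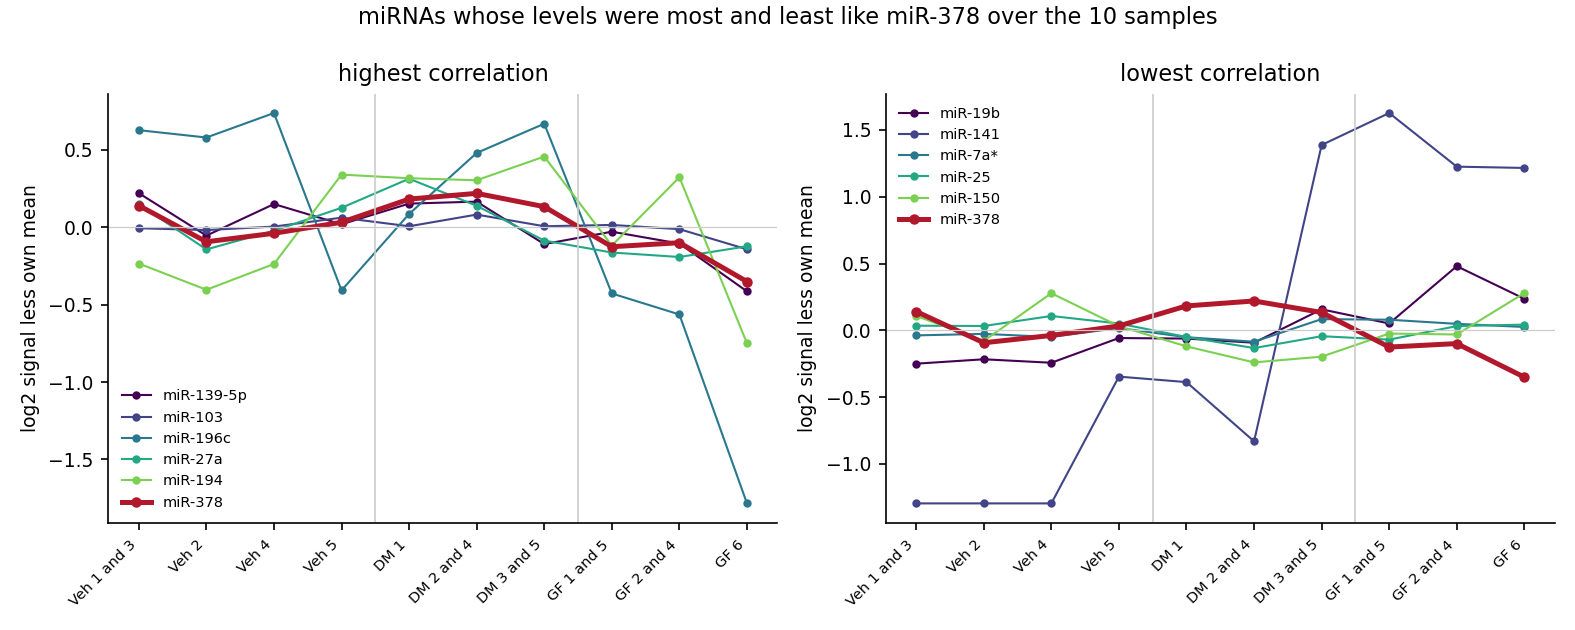
Log2 signal less each miRNA's own mean over the 10 distinct samples, for miR-378 (thick red) with the 5 miRNAs of highest (left) and of lowest (right) correlation; vertical lines separate Veh, DM and GF. miR-139-5p has the highest r with miR-378 when group differences are included (0.80), and miR-141 lies at the floor in 3 Veh samples.

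Other miRNAs with known roles in energy and lipid metabolism were followed as a list of 20, of which 19 were on the array and 15 were tested. In DM minus Veh and in GF minus Veh 0 of the 15 passed (limma), beside 0% and 7.88% of all tested miRNAs, and the medians were 0.11 and 0.035, beside 0.027 and -0.055 for all tested miRNAs. The largest differences of GF from Veh were those of miR-223, a myeloid miRNA (0.51, SE 0.15, adjusted p = 0.0611), miR-365, encoded beside a miR-193 gene (-0.36, SE 0.16, adjusted p = 0.158), and miR-29b, which targets collagens (0.34, SE 0.16, adjusted p = 0.169). The lipid miRNA miR-33, encoded in an intron of a sterol-response gene, differed by 0.035.

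Like miR-378, many miRNAs lie within a host gene. Of a list of 26 such miRNAs 23 were tested, and 2 were lower in GF than in Veh, with 0 higher (limma), beside 4.85% of all tested miRNAs lower and 7.88% in either direction. miR-208, from an intron of the cardiac myosin heavy chain gene Myh6, fell by 1.34 (SE 0.28, adjusted p = 0.0194), and miR-342-3p, from an intron of Evl, fell by 0.57 (SE 0.11, adjusted p = 0.0194). The median of the 23 was -0.057, beside -0.055 for all tested. In DM minus Veh 0 of the 23 passed, and the median was 0.066. Both calls rest on the comparison of GF with Veh whose count fell to 0 when single samples were left out, as given above. The host transcripts were not measured on these arrays.

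Muscle miRNAs and those of other cell types were read on the same arrays. Of 6 muscle miRNAs 5 were tested, and all 5 lay below 0 both in GF minus Veh (median -0.32, beside -0.055 for all tested miRNAs) and in DM minus Veh (median -0.18, beside 0.027). Of the 5 only miR-208 passed, in GF minus Veh, where 4.85% of all tested miRNAs were called lower. miR-206, a skeletal muscle miRNA, was detected on 0 arrays. The summed scaled signal of these 5 ran from 124291 to 170763 in Veh, from 126683 to 135860 in DM and from 114861 to 132783 in GF. Such sums, here and below, rest mostly on the brightest probes. For muscle these were miR-133b and miR-1 (log2 means of 16.2 and 15.9 in Veh), while miR-208 stood at 11.6. The sum of 3 endothelial miRNAs of 4 listed ran from 19449 to 23958 in Veh, from 17632 to 20956 in DM and from 15765 to 17115 in GF. The sum of 5 leukocyte miRNAs of 6 listed ran from 6208 to 6503 in Veh, from 5302 to 6564 in DM and from 5001 to 5709 in GF. Its members went different ways in GF minus Veh: miR-142-5p (-0.64, adjusted p = 0.0367) and miR-146a (-0.46, adjusted p = 0.0194) were called lower (limma), while miR-150 stood at -0.0097 and miR-223 at 0.51. Both red cell miRNAs, miR-144 and miR-451, lay below 0, with a median of -0.58 in DM minus Veh and -0.35 in GF minus Veh, and neither passed. Their sum ran from 6148 to 7349 in Veh, from 3447 to 6177 in DM and from 4603 to 5936 in GF. The sum of 4 fibroblast miRNAs ran from 14020 to 17443 in Veh, from 15363 to 18641 in DM and from 14313 to 18131 in GF, with medians of the differences from Veh of -0.061 in DM and -0.43 in GF and 0 calls. These members also went different ways in GF minus Veh: miR-21 stood at 0.32, while miR-199a-3p (-0.39), miR-199a-5p (-0.48) and miR-214 (-0.57) lay below 0. The sum of 2 smooth muscle miRNAs ran from 11694 to 18927 in Veh, from 14748 to 16460 in DM and from 14209 to 18178 in GF, with medians of 0.069 and 0.13 and 0 calls. Of 4 miRNAs of other organs, miR-122, miR-124 and miR-375 were detected on 0 arrays, and miR-9, a neural miRNA, on 15 of 15, at -0.54 in GF minus Veh (adjusted p = 0.0822, limma). The scaled signal of miR-9 was low, from 30.9 to 35.8 in Veh and from 19.8 to 26.2 in GF. Its lowest GF sample lay at the floor, so the difference rests in part on a bound. The part of these levels in the difference of miR-378 was not tested, and in whole hearts fewer cells of a type and less RNA per cell cannot be told apart.

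The authors' deposited table of 35 miRNAs that differed among the groups lists neither arm of miR-378.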

How the data were processed

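Agilent Feature Extraction 9.5.3.1 read the arrays, per the file headers and the submitters' processing notes. Its deposited output gives an intensity for each spot after background subtraction, with no scaling between arrays. One table deposited by the authors holds log2 values of 149 miRNAs relative to the mean of the control arrays, recomputed from the array files within 2.05e-06, and their comparison tables hold a p-value per miRNA. For these tables no software is named in the sources used here.

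Flagged spots were dropped. Signals were averaged over the spots of a probe, then scaled to the 75th percentile over the 254 probes above background on all 15 arrays. The scaled values were floored at 19.8 (log2 4.31), and each miRNA was represented by its brightest probe. Tests covered the 165 miRNAs above background in 3 or more of the 5 arrays of any group and left out 185. From 166 to 190 miRNAs were detected per array, 0 spots were saturated, and the number of arrays limits the precision. Close pairs of arrays (reduced chi-square under 1) were averaged. Groups were compared in R 4.3.3 by lmFit and eBayes of limma 3.58.1, 3 groups in 1 fit, two-sided, with Benjamini-Hochberg adjustment within a contrast and a threshold of 0.05; the script was tested on simulated data. Single measures were compared with exact permutation tests (scipy 1.17.1). Named besides both arms are the 5 miRNAs of highest and 5 of lowest correlation with miR-378, and list members that passed or, failing that, up to 3 with the largest difference of GF from Veh. miR-33 and single members of the cell type lists were named after their values were seen. Members and lists were chosen with earlier results of these data known. Alternatives covered the arrays counted, the scaling, background, summary, filters and left-out samples.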

Additional observations from a re-analysis of the deposited data

How the results depend on the processing

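In GF minus Veh, miR-378 turned to 0.12 with no scaling, 0.093 with the authors' deposited values and 0.15 with no scaling over 15 arrays, was smaller with the percentile over all probes (-0.067), the hur control spots (-0.081) and quantile normalization (-0.088), beside -0.20 as reported, and passed the threshold over 15 arrays (-0.20, adjusted p = 0.0322) and with slide as a fixed block (-0.20, adjusted p = 0.0385). miR-378* turned in GF minus Veh to 0.055 with the percentile over all probes, 0.24 with no scaling, 0.040 with the hur control spots, 0.22 with deposited values and 0.25 with no scaling over 15 arrays. In DM minus Veh it turned to -0.076 with no scaling, -0.072 with deposited values and -0.018 without DM replicates 3 and 5. In GF minus DM, miR-378 was -0.26 on slide 1, -0.25 with the percentile over all probes, 0.077 with no scaling, -0.24 with quantile normalization, 0.070 with deposited values and 0.038 with no scaling over 15 arrays. There miR-378* was -0.0083, 0.32, -0.027, 0.30 and 0.23 with the percentile over all probes, no scaling, quantile normalization, deposited values and no scaling over 15 arrays. The median of all tested miRNAs shifts with these scalings, and no other cause was tested. Leaving out 1 sample gave 0.13 to 0.21 for miR-378 in DM minus Veh, -0.25 to -0.12 in GF minus Veh and -0.42 to -0.29 in GF minus DM, and for miR-378* -0.018 to 0.092, -0.099 to -0.064 and -0.17 to -0.062.

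The labels number replicates 1 to 5 for Veh and DM, but 1, 2, 4, 5 and 6 for GF. The authors' column names number some GF arrays differently, and the labels were used. Same-numbered arrays correlated in their deviations from -0.53 to 0.47 (13 pairs, median 0.060, 6 over 0.1, against a median of -0.033 for other numbers). Correlations went both ways and close pairs carry different numbers, so pairing by number was neither shown nor excluded. In the replicate block over 15 arrays GF replicate 6 stood alone and added nothing to the contrasts. There miR-378 was 0.14 in DM minus Veh, -0.14 in GF minus Veh (adjusted p = 0.128) and -0.28 in GF minus DM. In GF minus Veh 50 miRNAs passed. The count of miRNAs past the threshold was 13 in GF minus Veh over distinct samples; it was 60 over 15 arrays, 57 with slide as a block, 30 with no scaling over 15 arrays, 25 with hur scaling over 15 arrays, 21 with the mean of all probes, 2 with deposited values, and 0 after wider merging, on either slide alone and with no filter on dim probes. Leaving out 1 sample gave 0 to 28 (28 without Veh replicate 5). The counts ran from 0 to 7 in DM minus Veh and from 0 to 11 in GF minus DM. The normexp alternative used median spot signals, as the files hold no mean signal. The alternatives for miR-378*, the difference between arms, the dimmer probe and the unscaled and hur-scaled 15 arrays were chosen after seeing the data.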
